A study of Mus musculus with 24 samples.

Results

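This report covers 34 mouse genes of the p53 pathway and the DNA damage response, measured by RNA-seq in CD45+ cells taken from EMT6-hHER2 breast tumors. The genes were chosen by name from a list of p53 targets, regulators of p53 and damage signaling genes and each of the 34 symbols matched 1 of the 16996 genes measured. EMT6-hHER2 is a clone of the murine breast cancer line EMT6 that carries human HER2, and its cells were placed in the mammary fat pad of female Balb/c mice with an intact immune system and a wild type genotype. Each of the 24 mice gave 1 library, with 6 mice in each of 4 groups, and mice were 10-12 weeks old by the labels. When tumors measured 80 mm3, mice received no treatment (untreated), trastuzumab at 20 mg/kg (Tras), T-DM1 at 15 mg/kg or T-PNU at 1 mg/kg by the intravenous route, and tumors were taken 10 days later. Trastuzumab is a HER2 antibody without a drug, T-DM1 is a HER2 antibody carrying the microtubule poison DM1, and T-PNU is a HER2 antibody carrying the anthracycline derivative PNU, which damages DNA. The doses of the conjugates were not the same, so T-PNU and T-DM1 were not compared at a matched dose. By the paper, T-PNU tumors were smaller at harvest than at treatment, while trastuzumab and T-DM1 did not prevent growth. Treatment and tumor size at harvest therefore cannot be told apart. The paper also marks some T-PNU samples as low-responding, and this split was not used here.

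The transcription factor p53, encoded by Trp53, is held at a low level by Mdm2, which marks it for destruction, and by Mdm4, which blocks its activity. Double-strand breaks activate the kinase Atm and, through it, Chek2, and p53 then accumulates and turns on genes for cell cycle arrest, DNA repair and cell death, together with its own inhibitors Mdm2 and Ppm1d. Several of the same genes, among them Btg2, Pmaip1, Ddit4 and Gdf15, also respond to other signals such as mitogens, interferon, hypoxia or the integrated stress response. The question put to the data was whether this program differed, 10 days after 1 dose, in the immune cells of tumors treated with the DNA damaging conjugate.

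The values analysed were on a log2 scale and already normalized for library size by the authors, and differences are therefore log2 fold changes. Counts were not recovered from them and the depth of each library is unknown. Sample medians over all genes lay between 8.73 and 8.87 and pairwise correlations between samples between 0.966 and 0.998, and no pair of libraries held identical values. The defining leukocyte genes were high in every library (lowest value of any of 6 pan leukocyte markers in any sample 12.7), while the mean of 10 tumor cell and stromal markers ran from 10.3 to 11.5, so transcripts of other cells were present among the bead-enriched cells. In such mixed samples, fewer cells of a type and less RNA per cell cannot be told apart. The pan leukocyte markers were not even between groups over the 24 samples. At a limma adjusted p under 0.05, 4 of the 6 (Ptprc, Laptm5, Cd53 and Cd52) were higher in T-PNU than in T-DM1 tumors, against 12.4% of all genes. Laptm5 alone was higher in T-PNU than in untreated tumors, against 0.135% of all genes. Untreated samples B1 and C1 and Tras samples E2 and B3 are absent from the heatmaps of the study, and the main counts are therefore given over all 24 samples and again over the other 20. Untreated mice carry one series of animal numbers in the column headings and treated mice another, so that series and treatment cannot be told apart where a comparison includes untreated samples.

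The sequence that p53 recognizes is made of a pair of copies of a decamer, and the promoters of the genes were searched for it because the members are grouped by this regulator. RefSeq promoter windows (build GRCm38.p6, 250 bases before to 50 bases after a start) were found for 27 of the 34 genes, 35 windows in all since some genes have several starts, and no window was found for Perp, Trp53inp1, Pmaip1, Ddb2, Rrm2b, Tnfrsf10b or Zmat3. A match to the 10-base p53 consensus, searched on both strands and its own reverse complement, stood in a window of 11 of the 27 genes (40.7%), against 2582 of all 27025 genes with a window (9.55%). Many members were chosen as p53 targets, so the higher share describes that choice. The shares are per gene and do not account for how many windows a gene has. A pair of matches with a spacer of at most 13 bases stood in a window of Cdkn1a alone among the members, and of 20 of all genes with a window (0.0740%). The stretches below are 30 bases each, 5′ to 3′ on the strand of the gene, with the 10 bases of the match in capitals, and they show how the matches of 6 of the 11 genes differ in their letters. Aen, Ei24, Gadd45a, Polk and Trp53 are the others with a match.
Cdkn1a, chr17:29090896-29090925, + strand: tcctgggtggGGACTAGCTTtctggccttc
Cdkn1a, chr17:29090918-29090947, + strand: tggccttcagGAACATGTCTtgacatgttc
Mdm2, chr10:117710925-117710954, - strand: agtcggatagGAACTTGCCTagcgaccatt
Bax, chr7:45467080-45467109, - strand: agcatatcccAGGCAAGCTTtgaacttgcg
Ccng1, chr11:40755452-40755481, - strand: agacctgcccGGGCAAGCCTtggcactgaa
Ppm1d, chr11:85311112-85311141, + strand: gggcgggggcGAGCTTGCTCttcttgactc
Sesn1, chr10:41887256-41887285, + strand: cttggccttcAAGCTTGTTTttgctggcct
The matches begin 73 and 51 bases before a RefSeq start of Cdkn1a, and 186 bases before one of Mdm2, 201 before one of Bax, 185 before one of Ccng1, 132 before one of Ppm1d and 173 before one of Sesn1. The start of Sesn1, at base 41887439 of chromosome 10, is an alternative one inside the gene, which begins at base 41809935 in the GENCODE annotation. A match describes the letters of a window and is not evidence that p53 bound there.

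All 34 genes were measured in every library. Per kilobase of exon, and averaged over the 24 samples, the highest levels on the log2 scale were those of the arrest gene Cdkn1a (12.4), the antiproliferative gene Btg2 (12.3) and Mdm2 (12.1), each above 97.8% of all genes or more. Plk2 (11.5) and Bax (11.2) followed. Trp53 itself, with 10.0 per kilobase, ranked 9th of the 34. The lowest levels were those of Perp (4.09, percentile 23.8 among all genes), Pidd1 (5.02) and Rrm2b (5.45). Cdkn1a spans chr17:29090976-29100727 on GRCm38, Mdm2 chr10:117688875-117710758, Trp53 chr11:69580359-69591873, Perp chr10:18845020-18857073 and Trp53inp1 chr4:11156431-11174379. The division into 4 groups accounted for 28.4% of the variance of a member gene at the median, against 25.8% over all genes, and for most in Ddit4 (57.8%) and Perp (55.9%).

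Between T-PNU and untreated tumors, none of the 34 genes passed the test over all 24 samples (0 of 34 at a limma adjusted p under 0.05), in a comparison in which 32 of 16996 genes (0.188%) did, 0.135% higher and 0.053% lower. At an unadjusted p under 0.05, limma gave 9 of the 34 genes (26.5%, against 24.8% of all genes) and the exact permutation test 5. Most of the differences were nonetheless positive, with 27 above 0 and 7 below, and their median log2 difference was 0.17 where that of all genes was 0.01. The range ran from -0.31 in Chek2 to 0.86 in Trp53inp1. The plot of 12 genes by group shows that untreated samples B1 and C1 held the extremes of their group in several of them.

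**Figure D1:**
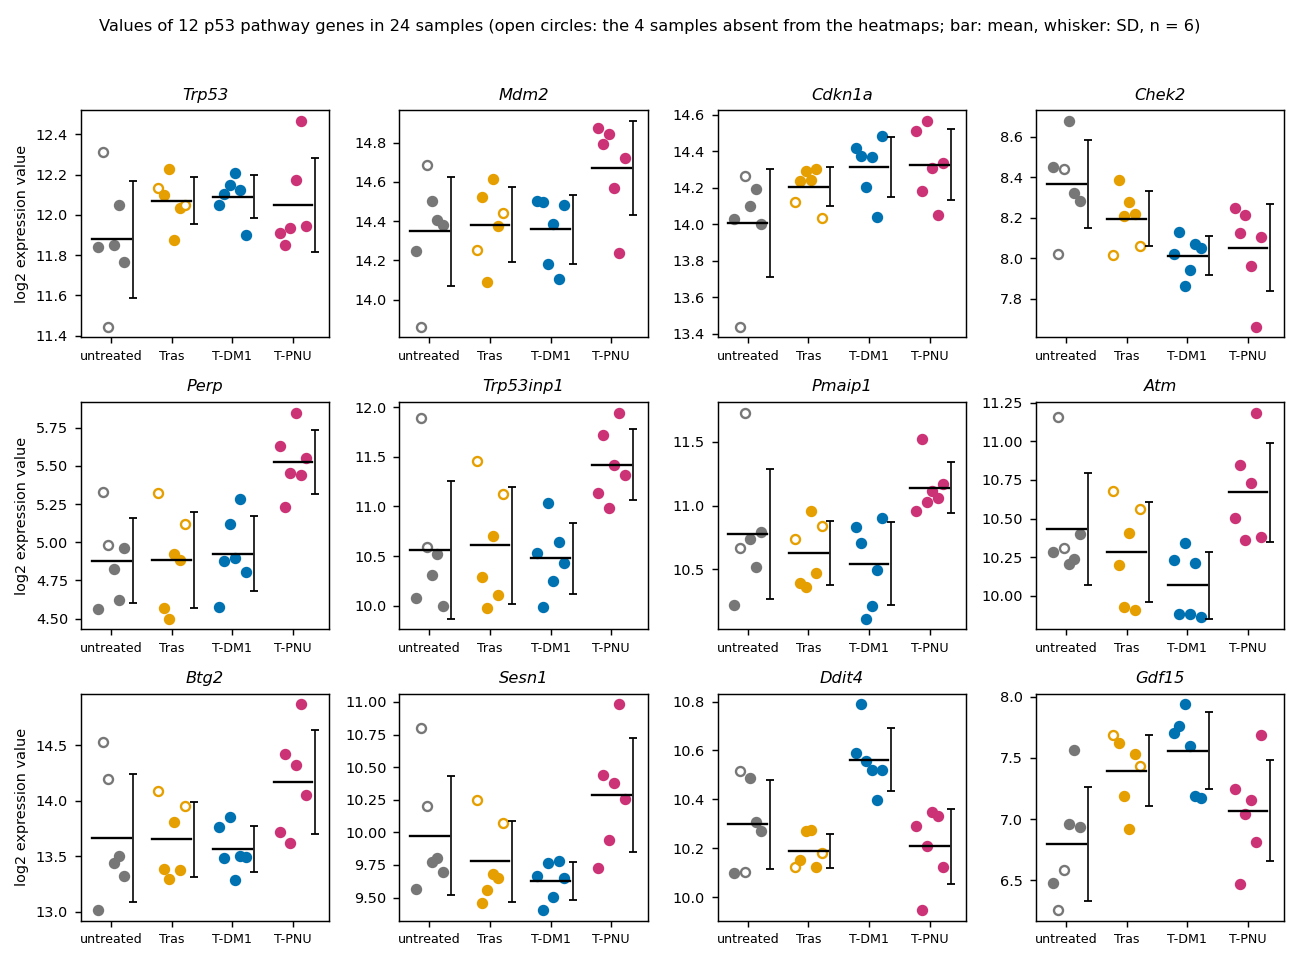
Log2 expression values (y axis) of 12 genes in the 4 groups (x axis). Each point is 1 mouse, open circles are the 4 samples absent from the study's heatmaps, the bar is the mean and the whisker the SD (n = 6 a group). All 6 T-PNU values of Perp lie between 5.23 and 5.85, and 5 of them lie above every untreated value.

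Among the genes for damage sensing and p53 control, 5 of 6 had a positive difference between T-PNU and untreated tumors (median 0.22) and none passed the test. Trp53 had 11.44, 11.85 and 12.31 as the lowest, median and highest value of the untreated samples and 11.85, 11.94 and 12.47 in T-PNU samples, and values below follow that order. The groups overlapped over most of their range (log2 difference 0.17 ± 0.11 SE, adjusted p = 0.338). Mdm2, the ubiquitin ligase that p53 both induces and is degraded by, ran over 13.86, 14.39 and 14.68 in untreated and 14.24, 14.76 and 14.87 in T-PNU samples. Of the 6 T-PNU samples, 4 lay above every untreated one, and the log2 difference was 0.33 ± 0.13 SE, adjusted p = 0.128. Ppm1d, the phosphatase that switches off damage signaling, ran over 9.18, 9.36 and 10.58 in untreated and 9.34, 9.89 and 10.62 in T-PNU samples (0.34 ± 0.21 SE, adjusted p = 0.301). Its highest untreated value belonged to B1 and nearly equalled the highest T-PNU value. The checkpoint kinase gene Chek2 went the other way, with 8.02, 8.38 and 8.68 in untreated and 7.66, 8.11 and 8.25 in T-PNU samples. Its log2 difference was -0.31 ± 0.10 SE, adjusted p = 0.0915, and 2 of 6 T-PNU samples lay below every untreated one. Atm ran over 10.20, 10.30 and 11.16 in untreated and 10.36, 10.62 and 11.19 in T-PNU samples (0.24 ± 0.17 SE, adjusted p = 0.370), and Mdm4 over 11.16, 11.31 and 11.96 in untreated and 11.28, 11.51 and 11.98 in T-PNU samples (0.20 ± 0.16 SE, adjusted p = 0.413), both with overlapping groups.

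Of the 7 arrest genes, 6 had a positive difference (median 0.28), and again none passed the test. Cdkn1a, which encodes the CDK inhibitor p21, ran over 13.44, 14.07 and 14.26 in untreated and 14.05, 14.32 and 14.57 in T-PNU samples. The log2 difference was 0.32 ± 0.12 SE, adjusted p = 0.104, with 4 of 6 T-PNU samples above every untreated one. B1 held the lowest Cdkn1a value of all 24 samples and was the sample farthest from the rest of its group. Btg2 gave 13.01, 13.47 and 14.53 in untreated and 13.62, 14.19 and 14.87 in T-PNU samples (0.50 ± 0.23 SE, adjusted p = 0.180). Ccng1, the gene of cyclin G1, gave 12.20, 12.40 and 12.71 in untreated and 12.38, 12.69 and 13.13 in T-PNU samples (0.28 ± 0.11 SE, adjusted p = 0.136). Gadd45a, a stress gene that binds PCNA, had the lowest difference of the role, with 10.98, 11.30 and 11.78 in untreated and 11.08, 11.23 and 11.54 in T-PNU samples (-0.069 ± 0.11 SE, adjusted p = 0.703). Plk2, a polo-like kinase gene, gave 13.27, 13.67 and 14.44 in untreated and 13.57, 13.83 and 14.02 in T-PNU samples (0.13 ± 0.14 SE, adjusted p = 0.542), and its highest value of all was that of untreated C1. The other arrest genes, Plk3 and Zmat3, differed by 0.10 and 0.31.

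Of the 13 cell death genes, 10 had a positive difference (median 0.14). Perp, a membrane protein gene needed for p53-dependent death and for cell adhesion, came nearest to the threshold in this comparison. Its values were 4.56, 4.89 and 5.33 in untreated and 5.23, 5.50 and 5.85 in T-PNU samples, and 5 of the 6 T-PNU samples lay above every untreated one. The log2 difference was 0.65 ± 0.15 SE, adjusted p = 0.0543, and the exact permutation test (two-sided) gave p = 0.00433, with 0.00216 the smallest that 6 against 6 samples allow. Trp53inp1, which encodes a nuclear protein that promotes p53 phosphorylation and autophagy, had the largest difference. It ran over 9.99, 10.41 and 11.89 in untreated and 10.98, 11.37 and 11.95 in T-PNU samples, and the log2 difference was 0.86 ± 0.28 SE, adjusted p = 0.0893. Untreated B1, at 11.9, lay within the T-PNU range, and the other 5 untreated samples, none above 10.6, lay below it. The BH3-only gene Pmaip1 (NOXA) ran over 10.22, 10.70 and 11.73 in untreated and 10.96, 11.09 and 11.52 in T-PNU samples (0.36 ± 0.19 SE, adjusted p = 0.226), with the highest value in untreated C1. The TRAIL receptor gene Tnfrsf10b had the lowest difference of the role, with 9.02, 10.02 and 10.38 in untreated and 9.57, 9.75 and 10.26 in T-PNU samples (-0.085 ± 0.18 SE, adjusted p = 0.772). Apaf1, a scaffold of the apoptosome, ran over 11.10, 11.34 and 11.67 in untreated and 11.32, 11.50 and 11.58 in T-PNU samples (0.14). The nuclease gene Aen ran over 9.78, 10.24 and 10.41 in untreated and 9.93, 10.21 and 10.45 in T-PNU samples (0.0042), and the AKT repressor gene Phlda3 over 8.67, 9.41 and 9.63 in untreated and 8.63, 9.61 and 10.16 in T-PNU samples (0.14). In these 4 genes the groups overlapped, and in Phlda3 the T-PNU samples lay on both sides of the untreated range. Among the 6 others, Bax, Bbc3, Fas, Eda2r, Ei24 and Pidd1, differences lay between -0.022 (Fas) and 0.24 (Pidd1).

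Of the 8 genes for repair, nucleotide supply and metabolic stress, 6 had a positive difference (median 0.17). Ddb2, which encodes a subunit that recognizes ultraviolet lesions, ran over 8.33, 8.65 and 10.28 in untreated and 8.57, 9.45 and 10.38 in T-PNU samples, a log2 difference of 0.53 ± 0.33 SE, adjusted p = 0.307. Sesn1 and Sesn2 encode sestrins, which restrain mTORC1. Sesn1 ran over 9.57, 9.79 and 10.80 in untreated and 9.73, 10.32 and 10.98 in T-PNU samples (0.31 ± 0.20 SE, adjusted p = 0.308). Sesn2 ran over 10.33, 10.70 and 10.88 in untreated and 10.49, 10.98 and 11.09 in T-PNU samples (0.24 ± 0.11 SE, adjusted p = 0.160), with 5 of 6 T-PNU samples above every untreated one and H1 as the exception. The cytokine gene Gdf15 gave 6.25, 6.76 and 7.56 in untreated and 6.47, 7.10 and 7.69 in T-PNU samples (0.27 ± 0.21 SE, adjusted p = 0.400), and Ddit4, another mTORC1 inhibitor gene, 10.10, 10.29 and 10.52 in untreated and 9.95, 10.25 and 10.35 in T-PNU samples (-0.09 ± 0.08 SE, adjusted p = 0.483). Polk, Rrm2b and Tigar, for lesion bypass, nucleotide supply and sugar metabolism, differed by between -0.064 and 0.10.

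Over the 20 samples of the heatmaps, 8 of the 34 genes passed the test between T-PNU and untreated tumors, 7 of them higher and 1 lower in T-PNU (15.3% and 15.7% of all genes). Over the same samples 5279 of 16996 genes (31.1%) passed, so the share of the members, 23.5%, was not above that of all genes. Trp53inp1 was higher by 1.20 ± 0.20 SE (adjusted p = 0.00212), Btg2 by 0.85 ± 0.19 SE (adjusted p = 0.00590) and Perp by 0.78 ± 0.14 SE (adjusted p = 0.00266) on the log2 scale. In these 3 genes and in Pmaip1 (0.57 ± 0.16 SE, adjusted p = 0.0152) every T-PNU sample lay above every one of the 4 untreated samples, against 8.03% of all genes. Ddb2, Ppm1d and Sesn1 were higher by 0.82, 0.60 and 0.58, and Chek2 was lower, at -0.38 ± 0.11 SE (adjusted p = 0.0141), with every T-PNU sample below every untreated one (7.9% of all genes). The classical targets Cdkn1a and Mdm2 were not among them, at 0.24 ± 0.10 SE (adjusted p = 0.0598) and 0.29 ± 0.12 SE (adjusted p = 0.0803), and neither were Bax (-0.0061), Zmat3 (0.21) or Phlda3 (-0.074). Leaving out C1 alone gave 4 called genes, in a fit that called 2929 of 16996 genes, and leaving out B1 alone gave 0.

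**Figure D2:**
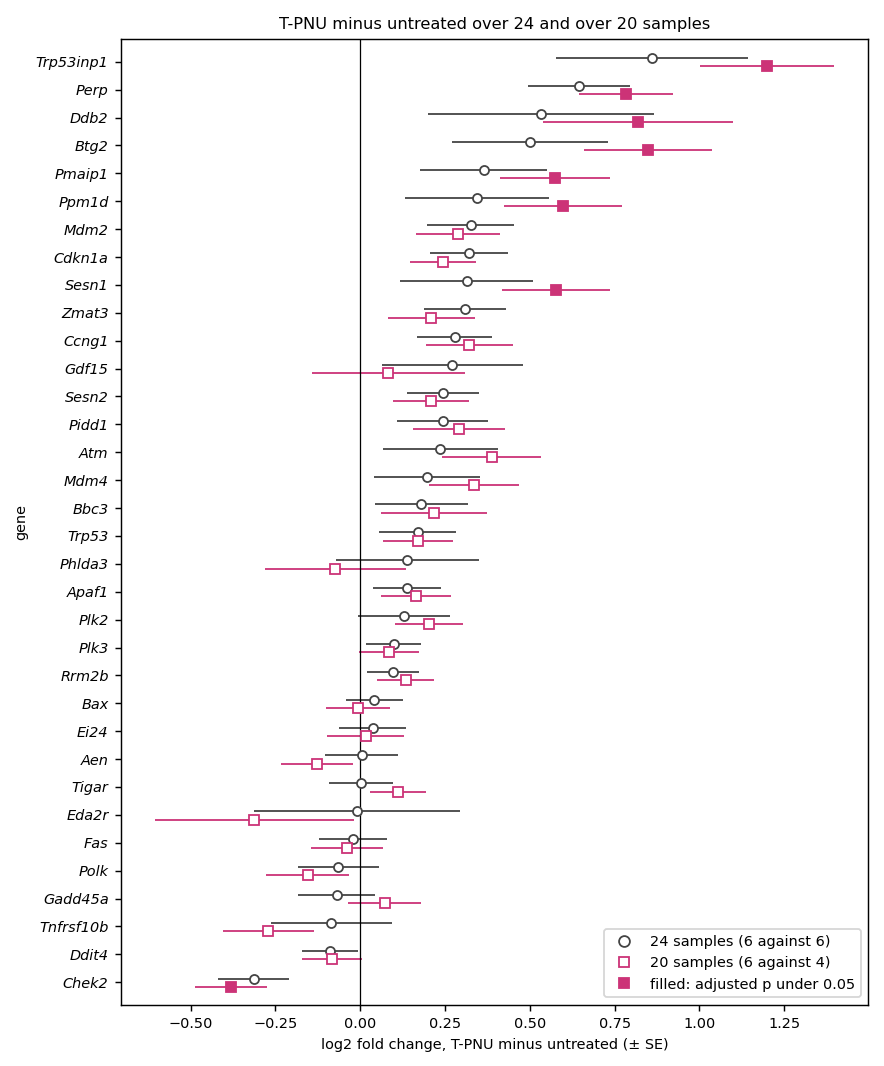
Log2 fold change of T-PNU minus untreated (x axis, with SE) for the 34 genes (y axis), over 24 samples (grey circles) and over 20 samples (red squares). No circle is filled and 8 squares are, filled symbols marking an adjusted p under 0.05.

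The largest number of members differed between T-PNU and T-DM1 tumors. Over 24 samples 10 of 34 genes passed (29.4%), in a comparison in which 5073 of 16996 genes (29.8%) did, so the share was that of all genes. The directions were split otherwise, with 9 members higher in T-PNU (26.5%, against 12.4% of all genes) and 1 lower (2.94%, against 17.4%). Values of all 6 T-PNU samples lay above all 6 T-DM1 samples in Atm and Pmaip1. Atm ran over 9.86, 10.05 and 10.34 in T-DM1 and 10.36, 10.62 and 11.19 in T-PNU samples (0.60 ± 0.17 SE, adjusted p = 0.0124), and Pmaip1 over 10.11, 10.60 and 10.90 in T-DM1 and 10.96, 11.09 and 11.52 in T-PNU samples (0.60 ± 0.19 SE, adjusted p = 0.0213). Non-overlap in this direction was found in 5.45% of all genes.

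Trp53inp1 ran over 9.98, 10.48 and 11.03 in T-DM1 samples, and was higher in T-PNU by 0.94 ± 0.28 SE, adjusted p = 0.0167, with 5 of 6 T-PNU samples above every T-DM1 one. Perp ran over 4.58, 4.89 and 5.28 in T-DM1 samples and was higher by 0.60 ± 0.15 SE, adjusted p = 0.00645. Sesn1, with 9.40, 9.66 and 9.78 in T-DM1 samples, was higher by 0.66 ± 0.20 SE, adjusted p = 0.0163. In both genes 5 of 6 T-PNU samples exceeded every T-DM1 sample. The arrest genes Btg2, Plk2 and Ccng1 were higher by 0.60 ± 0.23 SE, adjusted p = 0.0498, by 0.37 ± 0.14 SE, adjusted p = 0.0426 and by 0.31 ± 0.11 SE, adjusted p = 0.0407, and Apaf1 was higher by 0.28 ± 0.10 SE, adjusted p = 0.0376. Ddit4 was the gene lower in T-PNU, with 10.40, 10.54 and 10.79 in T-DM1 samples, every one above all T-PNU samples (-0.35 ± 0.08 SE, adjusted p = 0.00457; 7.73% of all genes). Cdkn1a did not differ beyond its error (T-DM1 14.04, 14.37 and 14.48, 0.011 ± 0.12 SE, adjusted p = 0.950), nor did Mdm2 at the threshold (0.31 ± 0.13 SE, adjusted p = 0.0639). With the spread estimated from the 20 samples, the same 12 samples gave 16 called genes against 39.9% of all genes, adding Mdm2, Mdm4 and Ppm1d as higher and Tnfrsf10b, Aen and Phlda3 as lower in T-PNU. When 1 sample was dropped at a time, in 24 fits, Atm, Perp, Trp53inp1, Sesn1 and Ddit4 were called every time, Pmaip1 21 times, Apaf1 17, Plk2 16, Ccng1 15 and Btg2 7 times. Leaving out T-PNU H1 or T-DM1 F3 left 5 called genes, and leaving out untreated C1 gave 14. Of all genes, 18.5%, 20.8% and 32.9% were called in these 3 fits.

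Between T-PNU and Tras tumors no member passed over 24 samples, where 1 of all genes (0.00588%) did. Of the 34 genes, 9 had an unadjusted limma p under 0.05 (19.5% of all genes did) and 8 an exact permutation p under 0.05. Over 20 samples 10 passed (29.4%), 9 higher and 1 lower, against 28.0% of all genes. Perp, with 4.50, 4.90 and 5.32 in all Tras samples, was higher in T-PNU by 0.81 ± 0.14 SE (adjusted p = 0.00407), and Trp53inp1, with 9.97, 10.50 and 11.46, by 1.15 ± 0.20 SE (adjusted p = 0.00407). Ddb2, Sesn1, Btg2, Ppm1d, Pmaip1, Atm and Mdm4 were higher by 0.95, 0.70, 0.70, 0.68, 0.59, 0.56 and 0.49, and Tnfrsf10b was lower, at -0.46 ± 0.13 SE (adjusted p = 0.0212). Tras E2 and B3, which are not among the 20, held the highest Tras values of Ddb2 (9.58 and 9.47) and Ppm1d (9.70 and 9.72). The same held for Perp, Trp53inp1, Sesn1, Btg2, Atm and Mdm4, but not for Pmaip1. In Tnfrsf10b they held the lowest (9.61 and 9.84). Why these samples are absent from the heatmaps is not known.

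T-DM1 tumors differed from untreated ones in 3 of the 34 genes (8.82%) over 24 samples, against 1065 of 16996 genes (6.27%), 4.11% higher and 2.15% lower. Gdf15, a cytokine gene induced by several stresses, ran over 6.25, 6.76 and 7.56 in untreated and 7.17, 7.65 and 7.94 in T-DM1 samples, 4 of which lay above every untreated one (0.76 ± 0.21 SE, adjusted p = 0.0331). Sesn2 ran over 10.83, 11.02 and 11.21 in T-DM1 samples, 5 of them above every untreated one (0.36 ± 0.11 SE, adjusted p = 0.0444). Chek2, with 7.86, 8.04 and 8.13, was lower (-0.35 ± 0.10 SE, adjusted p = 0.0458). Over 20 samples Chek2 alone passed (-0.42 ± 0.11 SE, adjusted p = 0.0453), against 2.01% of all genes, and leaving out single samples gave between 0 and 5 called genes. Phlda3 had 8.67, 9.41 and 9.63 in untreated and 9.77, 10.02 and 10.14 in T-DM1 samples, with every T-DM1 sample above every untreated one, which held for 2.05% of all genes. Its difference did not pass limma's threshold (0.67 ± 0.21 SE, adjusted p = 0.0589).

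Between Tras and untreated tumors no member passed the threshold (0 of 34 over 24 and over 20 samples, against 0.259% and 0.0% of all genes). At an unadjusted p under 0.05, limma gave 2 and 1 of the 34 genes (8.77% and 5.09% of all genes) and the exact permutation test 2 and 2. Gdf15 ran over 6.92, 7.48 and 7.69 in Tras samples and had the largest difference from untreated (0.60 ± 0.21 SE, adjusted p = 0.305). Between T-DM1 and Tras tumors, Ddit4 passed over 24 samples (0.37 ± 0.08 SE, adjusted p = 0.0316), against 0.647% of all genes, with 10.12, 10.17 and 10.28 in Tras samples and every T-DM1 sample above every Tras one (1.13% of all genes). No member passed over 20 samples, where 0.812% of all genes did and 5 members and 14.1% of all genes had an unadjusted limma p under 0.05. Tests for any difference among the 4 groups called 4 members over 24 samples, Ddit4, Gdf15, Perp and Trp53inp1, against 18.8% of all genes, and 13 over 20 samples, against 40.8%.

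**Figure D3:**
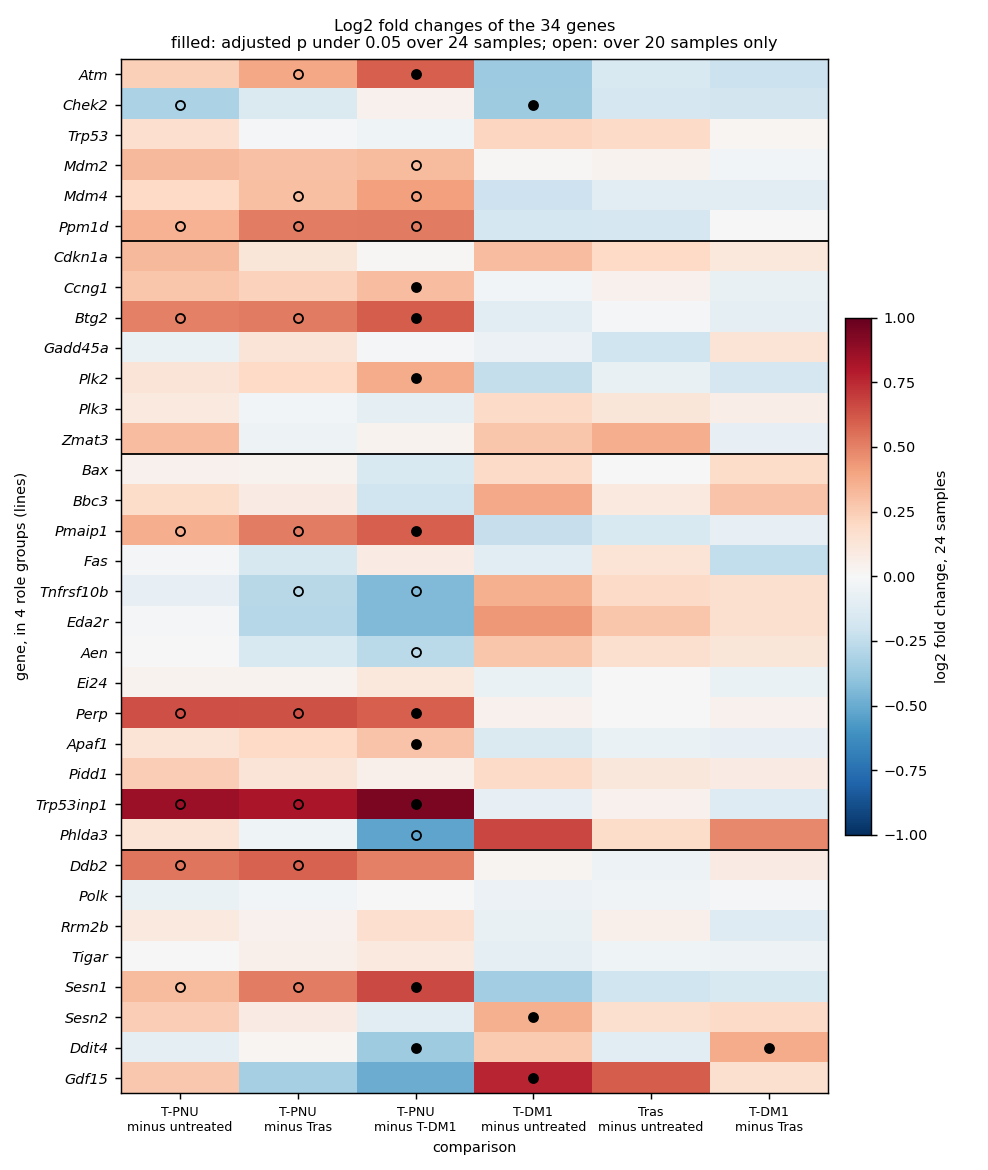
Log2 fold changes (color, from -1 in blue to 1 in red) of the 34 genes (y axis, in the 4 role groups) in the 6 comparisons (x axis). Filled dots mark an adjusted p under 0.05 over 24 samples and open dots over 20 samples only; the T-PNU minus T-DM1 column holds 10 filled dots.

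The members did not share one order of the samples. T-PNU C2 held the highest value of the 24 samples in 8 genes, Atm, Trp53, Mdm4, Ppm1d, Btg2, Trp53inp1, Ddb2 and Sesn1, and the lowest in Chek2, Eda2r, Phlda3 and Polk. T-PNU G1 held the highest value in another 6, Mdm2, Ccng1, Zmat3, Ei24, Phlda3 and Polk. In G1, 24 of 34 members lay above their mean over all samples, where 48.5% of all genes did. In untreated D1 the count was 6 of 34, against 48.1% of all genes. Untreated B1 resembled C2, with Atm, Mdm4, Ppm1d, Trp53inp1, Ddb2 and Tigar far above the other untreated samples and Cdkn1a, Mdm2 and Gdf15 at their lowest of all samples.

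**Figure D4:**
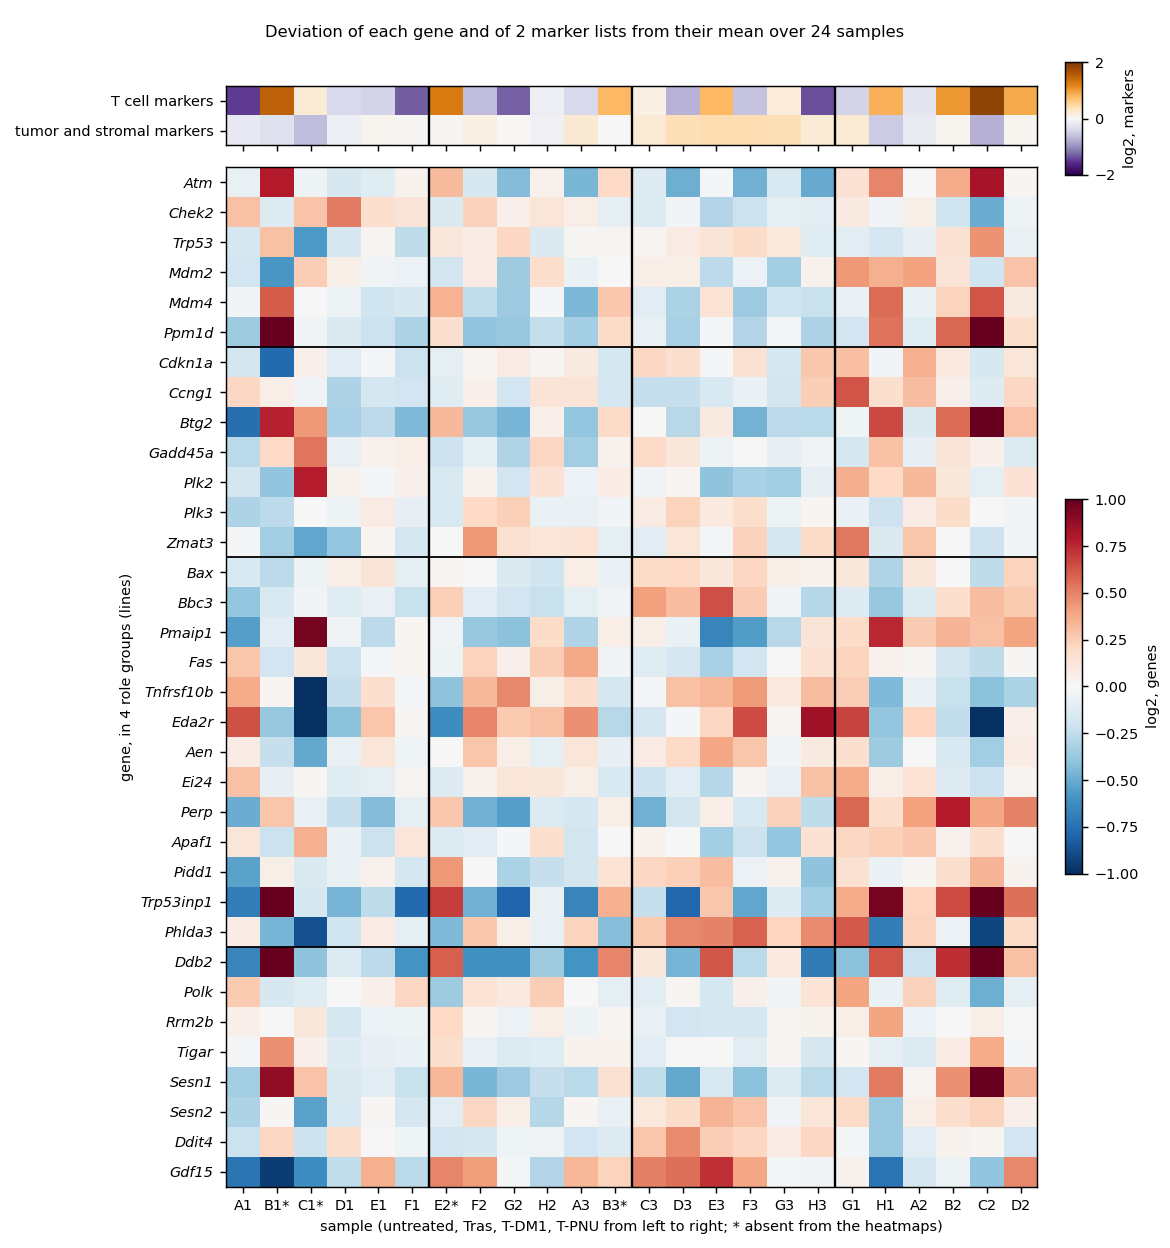
Deviation of each of the 34 genes (rows, blue to red) and of the mean of the T cell and of the tumor cell and stromal markers (top rows, purple to orange) from their mean over the 24 samples (columns, in log2 units). C2, B1 and H1 combine high T cell markers with high Atm, Ppm1d, Trp53inp1 and Ddb2.

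Several of the genes named above for their high value in C2, the sample with the highest T cell marker mean, were correlated with the T cell markers. Trp53 did not pass the threshold (rho 0.37 and r 0.40, adjusted permutation p = 0.128 and 0.0851). The mean of 9 measured T cell markers ranged from 8.12 to 11.1 in untreated, 8.33 to 10.9 in Tras, 8.24 to 10.4 in T-DM1 and 9.18 to 11.5 in T-PNU samples, and that of 10 B cell and naive lymphocyte markers from 7.42 to 11.5, 7.78 to 11.6, 7.73 to 10.7 and 7.84 to 11.7 in the same order. No marker of either list was at 0 (lowest values 7.50 and 5.45), and all 9 T cell markers passed as higher in T-PNU than in untreated tumors over 20 samples, with 0 over 24. Of all genes 15.3% and 0.135% were higher in these fits. Of the 10 B cell and naive lymphocyte markers 3 passed over 20 samples and 0 over 24. The 20 samples leave out untreated B1, whose T cell marker mean (11.13) was the highest of its group. Over the 24 mice, Ddb2 had a Spearman rho of 0.92 with the T cell marker mean and a Pearson r of 0.94 (permutation p = 1e-05 for each, the smallest that 100000 resamples can give; adjusted over 68 relations 7.56e-05 and 6.18e-05). The r was 0.92 without C2 and B1, the samples farthest from the median, and the rho of deviations from group means was 0.92. Ppm1d, Btg2, Trp53inp1 and Sesn1 had a rho of 0.92, 0.90, 0.88 and 0.85 and an r of 0.87, 0.90, 0.90 and 0.85 (permutation p = 1e-05 for each). Polk, the gene of a lesion bypass polymerase, had a rho of -0.82 and an r of -0.80 (permutation p = 1e-05 for each). These relations pool the 24 mice of 4 groups. The median T cell marker mean was 9.20 in untreated, 9.36 in Tras, 9.38 in T-DM1 and 10.49 in T-PNU samples. Differences between groups therefore enter these relations, and a relation within groups is given for Ddb2 alone. In all, 10 members were positively and 9 negatively correlated with the T cell markers by rho at an adjusted p under 0.05. A rho above 0.5 was found in 10 members (29.4%) and in 24.5% of all genes, and one below -0.5 in 7 (20.6%) and in 23.6% of all genes, so the members followed the markers about as often as other genes.

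Some members, in part the same genes as above, followed the tumor cell and stromal markers. The mean of these markers was 10.4 to 11.1 in untreated and 11.0 to 11.3 in Tras samples. It was 11.3 to 11.5 in T-DM1 and 10.3 to 11.3 in T-PNU samples. The marker genes, with a lowest value of 4.29, were measured in every library. Between T-PNU and T-DM1 tumors 6 of them were lower (Krt8, Col1a1, Col1a2, Col3a1, Dcn and Pdgfrb) and 3 higher (Epcam, Krt14 and Pecam1). Of 10 macrophage and monocyte markers 5 were higher in the same comparison, and of 8 neutrophil markers 2, where 12.4% of all genes were higher and 17.4% lower. Phlda3 had a rho of 0.84 and an r of 0.87 with this mean, Aen a rho of 0.81 and an r of 0.86, and Bax a rho of 0.74 and an r of 0.71. Gdf15 had a rho of 0.80 and an r of 0.76. The permutation p was at most 7e-05 for each of these, and without C2 and C1 the r of the 4 genes was 0.785, 0.775, 0.731 and 0.773 in that order. Atm, with a rho of -0.58 and an r of -0.64, went the other way. All of these relations pool the 24 mice of 4 groups whose marker means differed. Every T-DM1 sample (11.28 or more) lay above every untreated one (11.13 or less) in the marker mean. Differences between groups therefore enter these relations, and no relation within groups is given for them here. These 8 positive and 6 negative relations, by rho at an adjusted p under 0.05, are among the same 68. A rho above 0.5 was found in 8 members (23.5%) and in 16.0% of all genes, and one below -0.5 in 6 (17.6%) and in 12.7% of all genes. Of the genes named here, Atm, Phlda3 and Aen also passed with the T cell markers, in the opposite direction. Their rho with the T cell markers was 0.73, -0.53 and -0.55 (adjusted permutation p = 0.000567, 0.0218 and 0.0165). Bax and Gdf15 did not pass (rho -0.20 and -0.093).

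**Figure D5:**
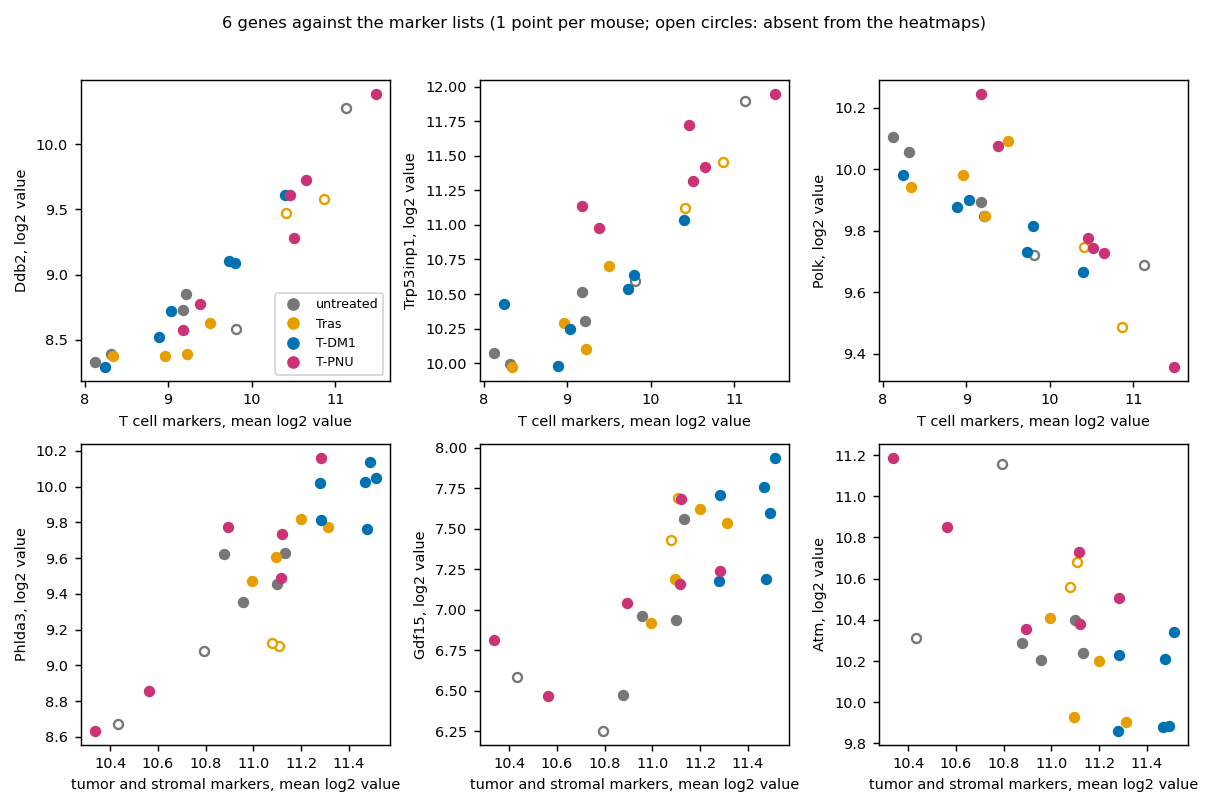
Log2 values of 6 genes (y axes) against the mean of the T cell markers (top) or of the tumor cell and stromal markers (bottom), 1 point per mouse, colored by group. Ddb2 and Trp53inp1 rise with the T cell markers and Polk falls, and Phlda3 and Gdf15 rise with the tumor cell and stromal markers.

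A fit chosen after these values were seen added the mean T cell marker level, or that and the mean tumor cell and stromal marker level, as covariates to the 4 groups. With both, T-PNU samples exceeded untreated ones in 6 of 34 members and fell below them in none, against 1.93% and 2.65% of all genes over the 24 samples. They were Zmat3, an RNA-binding splicing regulator (0.44, adjusted p = 0.0115), Cdkn1a (0.47, adjusted p = 0.0141), Mdm2 (0.44, adjusted p = 0.0486), Perp (0.43, adjusted p = 0.0438), Phlda3 (0.31, adjusted p = 0.0498) and Apaf1 (0.26, adjusted p = 0.0415). In the 20 samples 7 were higher, Ccng1 (0.61, adjusted p = 0.0188), Perp (0.66, adjusted p = 0.0233), Trp53inp1 (0.62, adjusted p = 0.0252), Zmat3 (0.52, adjusted p = 0.0181), Cdkn1a (0.45, adjusted p = 0.0204), Apaf1 and Ei24, against 2.50% of all genes. The differences of Atm, Mdm4, Ddb2 and Ppm1d, by contrast, were close to 0 over the 24 samples (-0.017, -0.022, -0.077 and 0.014). Without covariates, the 10 tumor cell and stromal markers did not move together between T-PNU and untreated tumors, with 4 positive and 6 negative. Krt14 passed as higher (1.15, limma adjusted p = 0.0470), against 0.135% of all genes, and Pdgfrb was at the other end (-0.75, adjusted p = 0.115). Their mean is therefore not a measure of 1 cell type. With the T cell markers alone, no member was called between T-PNU and untreated samples, where 1 of all genes (0.00588%) was, and 11 members had an unadjusted limma p under 0.05, against 16.7% of all genes.

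The same fits bear on the other comparisons. With the T cell markers as covariate, 11 members differed between T-DM1 and untreated samples, against 18.2% of all genes. Of these, 8 were higher in T-DM1 (10.2% of all genes), Phlda3 (0.68, adjusted p = 0.00564), Cdkn1a (0.32, adjusted p = 0.0154), Zmat3 (0.29, adjusted p = 0.0256), Gdf15, Sesn2, Bbc3, Aen and Ddit4, and 3 were lower (8.0% of all genes), Atm (-0.38, adjusted p = 0.0123), Chek2 (-0.35, adjusted p = 0.00706) and Sesn1 (-0.37, adjusted p = 0.00999). Between T-PNU and T-DM1 the same fit called 11 members, against 24.7% of all genes, with 9 higher in T-PNU (10.4% of all genes) and Bbc3 and Ddit4 lower (14.3%). Between T-DM1 and Tras it called Ddit4, higher in T-DM1, against 3.54% of all genes. Zmat3 was also higher in Tras than in untreated samples (0.41, adjusted p = 0.0215), against 1.52% of all genes. With both marker levels, no member was called in either comparison or between T-PNU and Tras or T-DM1, where 0.0118% (T-PNU and Tras), 0.0353% (T-PNU and T-DM1), 0.224% (T-DM1 and untreated) and 0.259% (Tras and untreated) of all genes were. At an unadjusted limma p under 0.05 the members numbered 8, 11, 2 and 3 in that order, against 8.62%, 11.7%, 10.6% and 16.0% of all genes. T-DM1 and Tras also gave no call with both, against 0.471% of all genes, and 5 members at an unadjusted limma p under 0.05, against 11.7% of all genes. Perp and Trp53inp1 were higher in T-PNU than in Tras in the 20 samples with both (0.80, adjusted p = 0.0170 and 0.63, adjusted p = 0.0416), against 0.630% of all genes. The marker levels were measured after treatment and differed between the groups, and such a fit cannot tell treatment and cell content apart.

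Genes of 6 further lists, on the p53 pathway, DNA damage and other responses, gave no call between T-PNU and untreated tumors over 24 samples (0 in each). The lists were chosen with earlier results of these data known. At an unadjusted limma p under 0.05 the lists, in the order described here, gave 2, 9, 10, 8, 4 and 3 genes, against 24.8% of all genes. Of 18 further p53 targets 14 had a positive difference (median 0.11), from Dcxr (0.48, adjusted p = 0.0791) to Lif (-0.65, adjusted p = 0.254). Over 20 samples 9 of the 18 were positive (median 0.021), and 3 passed as higher and 2 as lower, against 15.3% and 15.7% of all genes. Between T-PNU and T-DM1 tumors, over 24 samples, 7 of the 18 were positive and 11 negative (median -0.055). Rap2b and Fbxw7 were higher and Ak1, Lif and Sfn lower in T-PNU, against 12.4% and 17.4% of all genes. Of 20 genes for damage signaling and break repair 16 had a negative difference (median -0.11), with Prkdc at 0.21 and Xrcc6 at -0.37 at the ends. Between T-DM1 and untreated tumors 6 of these 20 were lower and none higher, Rad50, Nbn, Brca1, Brca2, Hus1 and Topbp1, against 2.15% of all genes lower. Over 20 samples 3 were lower, where 2.01% of all genes passed in either direction. Between T-PNU and untreated tumors over 20 samples 8 of the 20 were lower and 1 higher, against 15.7% and 15.3% of all genes. The 10 cell cycle genes that p53 lowers through p21 were all below 0 in T-PNU against untreated tumors, from Aurka (-0.31) to Cdc25c (-0.70, adjusted p = 0.0569), with a median of -0.51. Over 20 samples all 10 passed as lower, against 15.7% of all genes. Their mean level ran over 10.53, 10.84 and 11.10 as the lowest, median and highest value of untreated and over 9.70, 10.31 and 10.76 of T-PNU samples. The other treated groups were also mostly below untreated tumors in these 10 genes over 24 samples. In T-DM1 9 were negative (median -0.23), with Mki67 lower, against 2.15% of all genes. In Tras 9 were negative (median -0.16) and none passed. Between T-PNU and T-DM1 tumors 9 were negative (median -0.31), with Plk1 and Cdc25c lower in T-PNU, against 17.4% of all genes. The part of the share of proliferating cells in these differences was not tested.

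Among the 12 integrated stress response genes, which include inducers of Ddit4 and Sesn2 such as Atf4, 7 were lower and 1 (Atf3) higher in T-PNU than in T-DM1 tumors, against 17.4% of all genes lower. Between T-PNU and untreated tumors their median was -0.19, from Ddit3 (0.29) to Asns (-0.74). Over 20 samples 2 passed as higher and 6 as lower, against 15.3% and 15.7% of all genes. The 10 immediate early genes, which tissue digestion can induce, had a median of 0.30 between T-PNU and untreated tumors, from Zfp36 (0.50) to Ier3 (-0.07). Of these, 4 (Fos, Fosb, Junb and Ier3) were higher in T-DM1 than in untreated tumors, against 4.11% of all genes. Over 20 samples 1 was higher, where 2.01% of all genes passed in either direction. Between T-PNU and untreated tumors 4 of the 10 were higher over 20 samples, against 15.3% of all genes. Between T-PNU and T-DM1 tumors 3 (Fosb, Jun and Ier3) were lower in T-PNU over 24 samples, against 17.4% of all genes. The 6 glucocorticoid response genes had a median of 0.17 between T-PNU and untreated tumors, from Zbtb16 (0.59) to Klf9 (-0.23). Over 20 samples 3 passed as higher and 2 as lower, against 15.3% and 15.7% of all genes. The part of dissociation in the values of Btg2, Plk2 and Plk3, which respond to it, was not tested.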

How the data were processed

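RNA was measured in CD45+ cells enriched with beads from EMT6-hHER2 tumors of 24 mice. The authors aligned stranded reads to mm10 with STAR 2.4.2a, counted them per gene with featureCounts (Subread 1.5.0), removed genes averaging below 5 counts and normalized with DESeq2. The deposited values are log2 values whose transformation is not given in the sources used here, so low genes may show differences that are too small. All columns were mapped to samples by their names (0 left unmapped).

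Groups came from the sample labels, which carry no replicate numbers. Nothing says that samples shared a litter or day, and p-values measure the spread between these mice. One limma fit (3.58.1, R 4.3.3, trended eBayes, 20 residual degrees of freedom) held the 4 groups, and p-values were Benjamini-Hochberg adjusted over 16996 genes. A gene was called at an adjusted p under 0.05, and "passed", "higher" and "lower" refer to such calls where a test is named. Scripts ran in Python 3.11.15 with scipy 1.17.1 and were tested on simulated data. Alternatives were the 20 samples in the heatmaps of the study, sample weights, quantile normalization, only genes whose mean exceeded the median, eBayes without trend, fits of 2 groups, a stricter threshold and each sample left out. The fits with marker levels as covariates were added after seeing the data.

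The members and lists were chosen with earlier results of these data known. Values in the samples are given for members called over 24 or 20 samples in any comparison, for those with the largest and smallest difference between T-PNU and untreated tumors in each role, and for Trp53, Cdkn1a and Mdm2. Other members are given by range or difference, and genes of other lists by counts with the extremes. Zmat3 and Ei24 are named in the covariate fits, and list genes that passed are named by their calls, after their values were seen. Gene positions come from GENCODE M21 on GRCm38, and promoter sequences from RefSeq on GRCm38.p6. Columns of the authors' own comparisons were not used.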

Additional observations from a re-analysis of the deposited data

Results flagged for a closer look

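Within groups of 6 mice, 12 of the 136 gene and group pairs held 1 sample whose gap to the nearest other sample took up more of the range than Dixon's 95% critical value allows. Chance alone gives about 1 in 20 such pairs, and the members share samples and are not independent.

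Untreated B1 stood apart in 7 genes. It was highest in Atm (11.16, the other 5 between 10.20 and 10.40), Mdm4 (11.96, others 11.16 to 11.36), Ppm1d (10.58, others 9.18 to 9.51), Trp53inp1 (11.89, others 9.99 to 10.59), Ddb2 (10.28, others 8.33 to 8.85) and Tigar (9.34, others 8.75 to 8.93). It was lowest in Cdkn1a (13.44, others 14.00 to 14.26). Its T cell marker mean, 11.13, was the highest of the untreated group. Untreated A1 was highest in Ei24, at 11.27 against 10.86 to 11.00.

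T-PNU H1 stood apart in 3 genes, with Pmaip1 at 11.52 (others 10.96 to 11.17), Rrm2b at 9.03 (others 8.58 to 8.71) and Sesn2 at 10.49 (others 10.91 to 11.09). T-DM1 H3 was highest in Ccng1, at 12.75 against 12.27 to 12.44. These values are on the log2 scale.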

How the results depend on the processing

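No paired analysis was possible because the labels carry no replicate numbers, and numbers given in accession order pair nothing. Depth could not be weighed, since the files hold no counts.

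The number of members called between T-PNU and untreated tumors, 0 over 24 samples, was 8 over 20 samples, 13 with sample weights, 6 with both marker levels as covariates and 7 over 20 samples with both. Between T-PNU and Tras, also 0, it was 10, 6 with weights and 2 over 20 samples with both marker levels. Between T-PNU and T-DM1, the 10 became 16 over 20 samples, 17 with weights, 0 with both marker levels, 4 over 20 samples with both and 0 at an adjusted p under 0.01 with a fold above 2. Between T-DM1 and untreated tumors, the 3 became 1 over 20 samples, 8 with weights, 1 with only these groups fitted, 11 with the T cell marker level, and 0 with both marker levels, over 20 samples with both, and at the stricter threshold. Between Tras and untreated tumors, 0 became 1 with the T cell marker level. Between T-DM1 and Tras, the 1 became 3 with weights and 0 over 20 samples, among genes above the median, with both marker levels over 24 or 20 samples, and at the stricter threshold. The 4 in the test across all groups became 13 over 20 samples, 2 among genes above the median, 23 with weights and 12 with the T cell marker level. Of all genes, the fit with weights called 34.3%, 13.3%, 44.6%, 19.4%, 1.15%, 7.25% and 50.9% in that order of comparisons, with 0 members in the fifth. Over 20 samples with both marker levels, 854 of all genes were higher and 404 lower between T-PNU and T-DM1. The counts were 6 and 18 between T-DM1 and untreated tumors, and 15 and 78 between T-DM1 and Tras. Shares of all genes are not given here for fits of 2 groups, genes above the median or the stricter threshold. Nor is one given for the test across all groups with the T cell marker level. Without that share, those counts are not results about the members. The cause was not tested for any of these changes.

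With 1 sample left out, the counts in that order ran from 0 to 4, 0 to 0, 5 to 14, 0 to 5, 0 to 0, 0 to 1 and 2 to 8. Among all 16996 genes, and in the same order, the calls ran from 0 to 2929, 0 to 81, 3139 (18.5%) to 5881 (34.6%) and 419 to 1626. For the last comparisons they ran from 0 to 97, 32 to 353 and 1437 to 4776. The 4 came without untreated C1, which also gave 2929 of all genes, and the 8 without untreated B1.

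Some log2 differences changed sign. Between T-PNU and untreated tumors, they were Atm (-0.036), Mdm4 (-0.054), Ppm1d (-0.020), Tnfrsf10b (0.12), Ddb2 (-0.081) and Sesn1 (-0.029) with the T cell marker level. With both levels they were Atm (-0.017), Mdm4 (-0.022), Tnfrsf10b (0.066) and Ddb2 (-0.077), and over 20 samples with both Tnfrsf10b (0.042), Aen (-0.014), Ddb2 (-0.14) and Gdf15 (-0.063). Over 20 samples they were Gadd45a (0.072), Aen (-0.13) and Phlda3 (-0.074), and with weights Aen (-0.020). With 1 sample left out, Gadd45a ranged from -0.14 to 0.021, Tnfrsf10b from -0.26 to 0.012, Aen from -0.077 to 0.055 and Phlda3 from -0.0051 to 0.30. Between T-PNU and T-DM1, with both levels, they were Btg2 (-0.030), Tnfrsf10b (0.011), Aen (0.076) and Phlda3 (0.24), and over 20 samples with both Mdm4 (-0.023), Ppm1d (-0.035), Aen (0.024) and Phlda3 (0.25). Gdf15 was -0.055 between T-DM1 and untreated tumors over 20 samples with both. The other alternatives, quantile normalization and eBayes without trend, reversed no member.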
